A study of Mus musculus with 20 samples.

Results

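Elastic fibre genes were followed in mouse cardiac fibroblasts after myocardial infarction (MI), the death of heart muscle when its blood supply is cut. The group holds 10 genes that encode elastin, its microfibril scaffold and the proteins that assemble the fibre: Eln, Fbn1, Fbn2, Mfap5, Emilin1, Fbln1, Fbln2, Fbln5, Efemp1 and Efemp2. They were chosen by gene symbol, and all 10 were found among the 25746 genes of the deposited count table and among the 14968 genes tested. Chromatin was read from 267 of 143334 merged ATAC-seq regions, those that touch the span of a member or the 50 kb on either side. ATAC-seq marks accessible DNA by the places where a transposase inserts adapters.

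The cells came from hearts of mice in which a tamoxifen-dependent Cre (MerCreMer) marked the Tcf21 lineage, the resident cardiac fibroblasts and their descendants, with eGFP. Every group had received tamoxifen at 75 mg/kg per day for 5 days, and eGFP+ cells were sorted from collagenase and dispase digests with a gate set on eGFP- wild-type cells. RNA-seq used 10000 sorted cells a library. There were 5 groups, uninjured hearts and hearts taken after MI (day 3, day 7, week 2 or week 4), each with 2 RNA and 2 ATAC-seq libraries. The labels give no ages, and they do not say whether the replicates were separate animals. The p-values judge a difference between groups only against the spread between replicates, estimated from all 5 groups together. Shares of Y-linked RNA, given below, differed between the 2 RNA replicates of day 3, of day 7 and of week 4. Those replicates therefore held cells of different animals, and their spread also holds differences between animals. For the uninjured and week 2 groups the spread may be technical.

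Elastic fibres give arteries, lung and heart their recoil. Elastin is secreted as a soluble precursor, gathers on fibulins, is laid on microfibrils built of fibrillins and their partners, and is then crosslinked by lysyl oxidases into a polymer that lasts for years. Microfibrils also hold latent TGF-beta in the matrix. In the heart after MI, fibroblasts turn from resident cells into matrix-producing cells that build the scar.

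The RNA libraries held 16397211 to 21043997 estimated counts each. Summed levels of 8 fibroblast markers ran from 22710 to 50212 CPM, a gene's counts relative to its library's scaled total, and none of those markers was at 0 in any library. Single markers moved both ways under this sum. Against uninjured cells, 4 were called higher and 3 lower at day 3, and 3 higher and 2 lower at day 7. At week 2, 3 were higher and 1 lower, and at week 4, 3 were higher and 0 lower. The shares of all genes called at these times are given in the next paragraph. On the third principal component of all tested genes, week 2 replicate 2 stood apart at -132.14, against -18.12 to 55.37 for the other 9 libraries. Its sample code begins with B and those of the other 9 with C, and the labels do not say what the letter stands for. Y-linked genes took 0.0124 to 0.0429% of counts in 5 libraries, both of week 2 among them, and at most 6.24e-05% in the other 5, both uninjured libraries among them. Any difference between week 2 and uninjured cells therefore cannot be told apart from this one. Within a group, replicates 1 and 2 differed at day 3 (0.0124 and 4.25e-05%), day 7 (3.6e-05 and 0.0252%) and week 4 (4.88e-05 and 0.0314%).

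Nearly all elastic fibre genes differed over the time course, in several different shapes. Of the 10 genes, 9 passed the test for any difference among the 5 groups, against 15.7% of all genes tested, and Mfap5 did not (adjusted p = 0.064). At day 3, 6 of 10 genes passed against uninjured cells, 4 higher and 2 lower, beside 11.8% of all genes (7.39% higher and 4.40% lower). At day 7, 8 of 10 passed, 6 higher and 2 lower, beside 7.15% of all genes (4.39% higher and 2.76% lower). At week 2, 3 of 10 passed, 2 higher and 1 lower, beside 1.89% (1.44% higher and 0.454% lower). At week 4, 2 of 10 passed, 1 in each direction, beside 2.32% (1.85% higher and 0.474% lower). Both libraries lay beyond both uninjured libraries for 5 genes upward and 2 downward at day 3 (29.5% and 30.6% of all genes), 8 and 2 at day 7 (27.3% and 27.7%), 6 and 1 at week 2 (19.3% and 22.4%), and 8 and 1 at week 4 (25.6% each way). Between times after MI, 3 genes were higher at day 7 than at day 3 (1.38% of all genes either way, 0.822% higher), 2 lower at week 2 than at day 7 (0.648% either way, 0.454% lower) and 1 lower at week 4 than at week 2 (0.608% either way, 0.154% lower). Between day 7 and week 4, 1 gene was higher and 2 were lower (2.42% either way, 0.895% higher and 1.52% lower). All p-values come from edgeR's quasi-likelihood test with Benjamini-Hochberg adjustment over all genes tested. In such sorted but bulk samples, fewer cells of a type and less RNA per cell cannot be told apart.

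**Figure D1:**
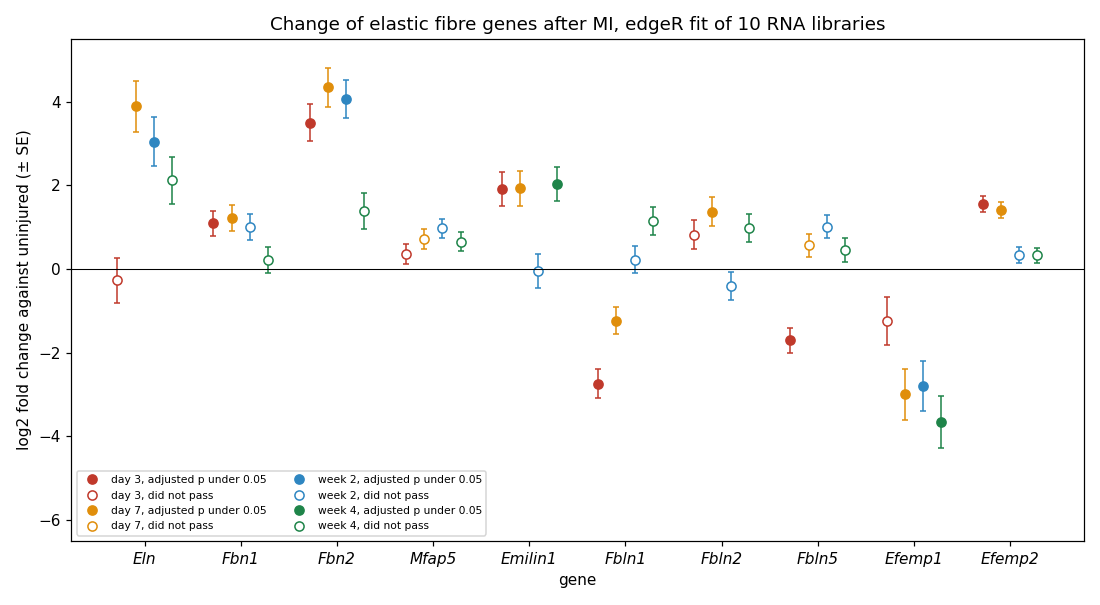
The log2 fold change of each of the 10 genes against uninjured cells (vertical axis, bars are ± SE of the edgeR fit of 10 RNA libraries) at 4 times after MI, with filled points for an adjusted p under 0.05. Fbn2 stands at 3.50, 4.34 and 4.07 at day 3, day 7 and week 2, and Efemp1 reaches -3.65 at week 4.

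Eln encodes elastin itself, the polymer core of the fibre. Its level was 61.4 and 29.2 CPM in uninjured libraries and 59.3 and 15.7 CPM at day 3. It was 597 and 745 CPM at day 7, 334 and 411 CPM at week 2, and 173 and 222 CPM at week 4. The day 3 and uninjured libraries overlapped, and all 6 later libraries lay above all 4 of them. The log2 fold change against uninjured cells was -0.27 ± 0.54 (SE) at day 3 (adjusted p = 0.818), 3.89 ± 0.60 at day 7 (adjusted p = 0.00689) and 3.04 ± 0.58 at week 2 (adjusted p = 0.0363). At week 4 it was 2.12 ± 0.56 and did not pass (adjusted p = 0.112). The step from day 3 to day 7 was 4.16 ± 0.61, a 17.9-fold difference (adjusted p = 0.0178). That call was lost when any library of day 7 or of week 4 was left out. The day 7 call was lost without uninjured replicate 2 (3.43, adjusted p = 0.111) or day 7 replicate 2. The week 2 call was lost without any of 8 libraries, among them week 2 replicate 2 (2.88, adjusted p = 0.243).

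**Figure D2:**
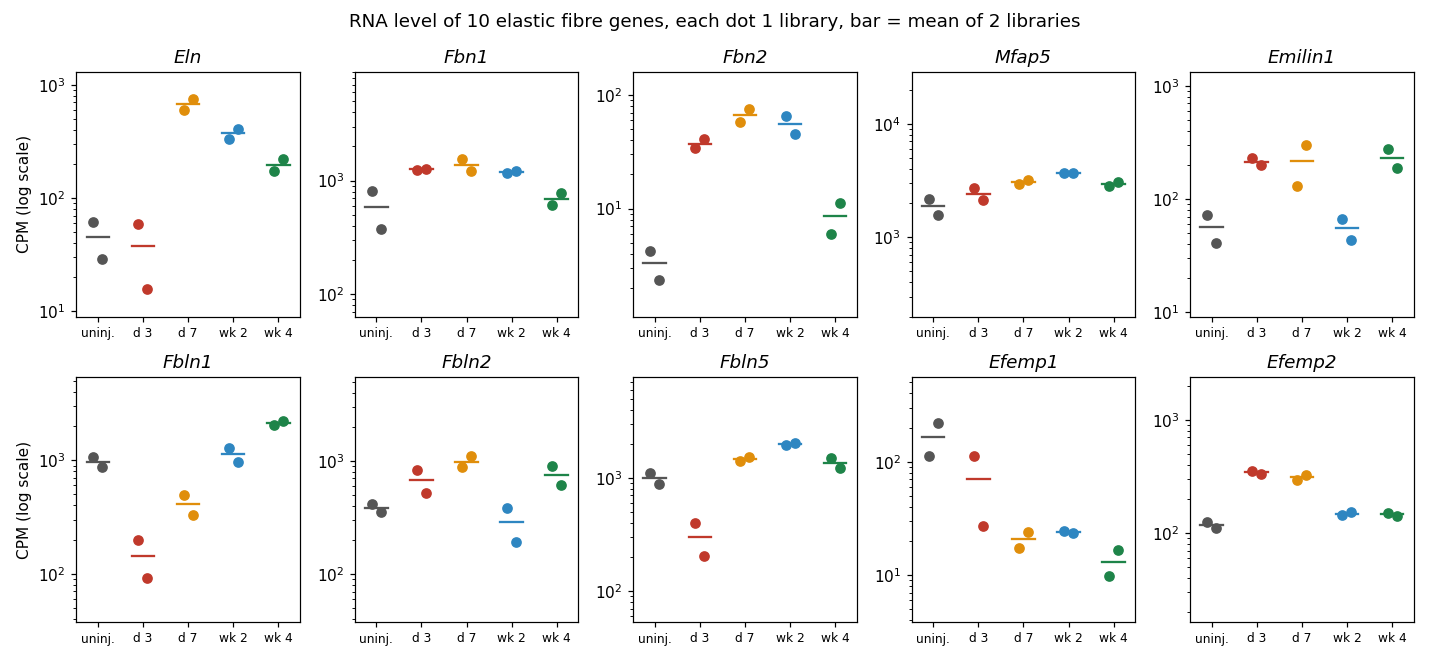
The level of each of the 10 genes in CPM (logarithmic vertical axis spanning the same number of decades in each panel) in the 10 RNA libraries, where a dot is 1 library and a bar the mean of 2. Eln steps up between day 3 and day 7, Fbln1 and Fbln5 dip at day 3, and Efemp1 stays at or under 24.4 CPM from day 7 on.

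Fibrillins are the backbone of the microfibril. Fbn1, the main fibrillin of adult tissue, stood at 807 and 374 CPM in uninjured libraries, 1252 and 1260 CPM at day 3, and 1537 and 1210 CPM at day 7. It was 1159 and 1219 CPM at week 2 and 604 and 769 CPM at week 4, where the libraries overlapped the uninjured ones. Fbn1 was higher by 1.09 ± 0.31 (log2 fold change) at day 3 (adjusted p = 0.0367) and by 1.22 ± 0.31 at day 7 (adjusted p = 0.0316). Both calls were lost without uninjured replicate 2, the lowest of the 10 libraries for this gene. The day 3 call was also lost without either day 3 library or week 2 replicate 1, and the day 7 call without either day 7 library.

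Fbn2, a fibrillin best known from embryonic development, was raised from day 3 to week 2. It was lower again at week 4, though still above both uninjured libraries. Its level was 4.26 and 2.36 CPM in uninjured libraries, 34.2 and 40.7 CPM at day 3, 58.2 and 76.0 CPM at day 7, and 66.1 and 45.5 CPM at week 2. At week 4 it was 5.94 and 11.3 CPM. The 6 libraries from day 3 to week 2 lay above all 4 uninjured and week 4 libraries. Fbn2 was 11.3-fold higher at day 3 (log2 fold change 3.50 ± 0.45, adjusted p = 0.000619), 20.2-fold at day 7 (4.34 ± 0.46, adjusted p = 0.000187) and 16.8-fold at week 2 (4.07 ± 0.46, adjusted p = 0.000475). These 3 calls passed with each of the 10 libraries left out, with log2 fold changes of 3.10 or more. At week 4 the log2 fold change of 1.38 ± 0.42 did not pass (adjusted p = 0.136). From week 2 to week 4 Fbn2 fell by 2.69 on the log2 scale (SE 0.43, adjusted p = 0.0287), a call lost without week 2 replicate 2 or week 4 replicate 1.

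Mfap5 encodes a small glycoprotein that binds fibrillin microfibrils. It ran at 2195 and 1559 CPM in uninjured libraries, 2693 and 2120 CPM at day 3 and 2928 and 3232 CPM at day 7. At week 2 it was 3667 and 3687 CPM, and at week 4 it was 2815 and 3091 CPM. The libraries from day 7 on all lay above both uninjured ones, but no comparison passed. The nearest was week 2, at a log2 fold change of 0.97 ± 0.23 (adjusted p = 0.0558).

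Emilin1 encodes a glycoprotein found where elastin meets the microfibril. It was measured at 73.0 and 40.6 CPM in uninjured libraries, 230 and 198 CPM at day 3 and 132 and 300 CPM at day 7. It returned to 66.8 and 43.3 CPM at week 2 and stood at 278 and 187 CPM at week 4. All libraries of day 3, day 7 and week 4 lay above all uninjured and week 2 libraries. Emilin1 was higher by 1.91 ± 0.41 on the log2 scale at day 3 (adjusted p = 0.012), by 1.92 ± 0.41 at day 7 (adjusted p = 0.018) and by 2.03 ± 0.41 at week 4 (adjusted p = 0.0287). The 3 calls were each lost without uninjured replicate 2, that of day 7 also without day 7 replicate 2, and those of day 3 and week 4 also without either library of the time. The week 2 value was -0.05 ± 0.40 (adjusted p = 1). The step down from day 7 to week 2 (-1.97 ± 0.41, adjusted p = 0.0574) and the step up to week 4 (2.08 ± 0.41, adjusted p = 0.0545) both missed the threshold.

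The fibulins are calcium-binding matrix glycoproteins, and their members moved in opposite directions at day 3. Fbln1, which binds fibronectin and elastin, was at 1074 and 865 CPM in uninjured libraries and at 198 and 91.2 CPM at day 3. It then stood at 490 and 332 CPM at day 7, 1285 and 976 CPM at week 2 and 2042 and 2237 CPM at week 4. Both day 3 libraries were below all others, and both week 4 libraries above all others. Fbln1 fell 6.71-fold at day 3 (log2 fold change -2.75 ± 0.35, adjusted p = 0.000588) and was still 2.36-fold lower at day 7 (-1.24 ± 0.33, adjusted p = 0.0408). From day 7 to week 4 it rose by 2.38 ± 0.34 on the log2 scale (adjusted p = 0.00679). At week 4 its excess over uninjured cells, 1.14 ± 0.33, did not pass (adjusted p = 0.11). The day 3 call passed with each library left out, the day 7 call was lost without any of 5 libraries, and the call from day 7 to week 4 was lost without day 7 replicate 2.

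Fbln5, which carries elastin onto microfibrils and is needed for elastic fibres to form, also dipped at day 3. It measured 1091 and 885 CPM in uninjured libraries, 400 and 205 CPM at day 3, and 1393 and 1529 CPM at day 7. At week 2 it was 1962 and 2024 CPM, and at week 4 it was 1486 and 1219 CPM. Only the day 3 libraries lay below the uninjured ones, and those of day 7 and later lay above. The fall at day 3 was 3.27-fold (log2 fold change -1.71 ± 0.29, adjusted p = 0.00263), and the rise from day 3 to day 7 was 4.83-fold (2.27 ± 0.29, adjusted p = 0.00635). Both calls passed with each of the 10 libraries left out. Against uninjured cells, the later values of 0.56 ± 0.28, 1.01 ± 0.28 and 0.45 ± 0.28 at day 7, week 2 and week 4 did not pass (adjusted p = 0.288, 0.11 and 0.563).

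The stretch of 250 bases before the outermost RefSeq start is shown for Fbln1 and Fbln5, the 2 fibulins that fell at day 3 (GRCm38.p6, gene strand, capitals mark matches to a searched motif). The motifs were the TATA box TATAAA, the AP-1 motif TGANTCA, the TEAD motif GGAATG, the RUNX motif TGTGGT, the GC box GGGCGG and the CArG box, on both strands. The Fbln1 stretch held no match, and the stretch before a second RefSeq start of Fbln1 (85206008) held a GC box at -11 to -6. That before a second start of Fbln5 (101818484) held none. The Fbln5 stretch held 2 GC boxes, at -221 to -216 and -48 to -43 counted from the start site, a motif that 32.7% of 32851 RefSeq promoters hold.
Fbln1, chr15:85205699-85205948, plus strand: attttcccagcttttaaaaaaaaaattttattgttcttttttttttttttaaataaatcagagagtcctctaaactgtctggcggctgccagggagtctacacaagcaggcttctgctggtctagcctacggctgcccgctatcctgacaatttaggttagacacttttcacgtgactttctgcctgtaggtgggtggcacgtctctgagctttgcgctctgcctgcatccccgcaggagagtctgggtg
Fbln5, chr12:101819120-101819369, minus strand: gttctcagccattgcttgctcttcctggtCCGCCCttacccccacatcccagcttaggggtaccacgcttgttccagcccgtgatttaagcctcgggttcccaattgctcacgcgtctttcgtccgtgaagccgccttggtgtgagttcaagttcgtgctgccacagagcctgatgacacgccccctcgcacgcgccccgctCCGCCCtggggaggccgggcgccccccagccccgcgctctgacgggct

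Fbln2, a fibulin made strongly by mesenchyme of the developing heart, stood at 412 and 351 CPM in uninjured libraries, 832 and 516 CPM at day 3 and 877 and 1092 CPM at day 7. It was 387 and 190 CPM at week 2 and 900 and 609 CPM at week 4. The libraries of day 3, day 7 and week 4 were above both uninjured ones, and those of week 2 overlapped them. The rise at day 7, 1.37 ± 0.34 on the log2 scale, passed (adjusted p = 0.0324), and so did the fall from day 7 to week 2, -1.77 ± 0.35 (adjusted p = 0.0472). The rise was lost without any 1 of the 4 libraries compared, and the fall without day 7 replicate 2. Without week 2 replicate 2 the fall was -1.34 (adjusted p = 0.132). The day 3 and week 4 values of 0.82 ± 0.34 and 0.98 ± 0.34 did not pass (adjusted p = 0.151 and 0.214).

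Efemp1 and Efemp2 encode fibulin-3 and fibulin-4, close relatives that went opposite ways. Efemp1 was at 113 and 219 CPM in uninjured libraries and at 113 and 27.3 CPM at day 3, where the groups just overlapped. It then stood at 17.4 and 24.1 CPM at day 7, 24.4 and 23.3 CPM at week 2 and 9.84 and 16.5 CPM at week 4. All 6 later libraries lay below all 4 of uninjured and day 3. Efemp1 was 8.0-fold lower than uninjured at day 7 (log2 fold change -3.00 ± 0.61, adjusted p = 0.0168), 6.95-fold at week 2 (-2.80 ± 0.60, adjusted p = 0.0475) and 12.6-fold at week 4 (-3.65 ± 0.63, adjusted p = 0.016). The calls were lost without uninjured replicate 2 (-2.47, -2.23 and -3.11, adjusted p = 0.077, 0.226 and 0.0604), and the week 2 call also without week 2 replicate 2 (-2.76, adjusted p = 0.372). Each was also lost without either library of its time, and the week 2 call without any library of day 7 or week 4.

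Efemp2, whose product binds lysyl oxidase and is required for elastin crosslinking, rose early and came back. It was at 124 and 111 CPM in uninjured libraries, 354 and 333 CPM at day 3, 297 and 324 CPM at day 7, 144 and 153 CPM at week 2, and 151 and 143 CPM at week 4. The day 3 and day 7 libraries lay above all the others. Efemp2 was 2.92-fold higher at day 3 (log2 fold change 1.55 ± 0.19, adjusted p = 0.000565) and 2.64-fold at day 7 (1.40 ± 0.19, adjusted p = 0.00101), and both calls passed with each library left out. It fell by 1.06 on the log2 scale from day 7 to week 2 (SE 0.19, adjusted p = 0.0335), a call lost without either week 2 library, day 7 replicate 2 or week 4 replicate 2. The later values against uninjured cells, 0.34 ± 0.19 and 0.32 ± 0.19, did not pass (adjusted p = 0.575 and 0.529).

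The same 250-base stretch is shown for this pair. That of Efemp1 held an AP-1 motif at -154 to -148, which 6.75% of RefSeq promoters hold, and a GC box at -29 to -24. That of Efemp2 held 2 GC boxes, at -90 to -85 and -21 to -16. The stretches before its 2 further starts (5474690 and 5474735) overlap each other and held the same 5 matches. These are matches of letters, not sites shown to be bound.
Efemp1, chr11:28852955-28853204, plus strand: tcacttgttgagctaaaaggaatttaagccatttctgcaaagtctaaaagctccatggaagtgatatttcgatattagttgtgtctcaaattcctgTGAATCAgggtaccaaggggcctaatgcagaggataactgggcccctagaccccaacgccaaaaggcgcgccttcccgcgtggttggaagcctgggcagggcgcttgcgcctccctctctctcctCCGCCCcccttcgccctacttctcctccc
Efemp2, chr19:5473696-5473945, plus strand: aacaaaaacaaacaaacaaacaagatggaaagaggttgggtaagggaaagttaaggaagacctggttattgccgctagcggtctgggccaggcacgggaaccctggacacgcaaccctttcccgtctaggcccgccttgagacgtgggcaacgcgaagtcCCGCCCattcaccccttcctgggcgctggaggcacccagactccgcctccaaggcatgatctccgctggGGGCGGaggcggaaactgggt

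The 10 genes therefore did not move as 1 block, and their likeness over the libraries is given as a description. Over the 10 RNA libraries, which include both replicates of each group, the highest Pearson correlation of log2 CPM within the set was 0.914 between Fbn1 and Fbn2. Emilin1 and Fbln2 followed at 0.884, Eln and Mfap5 at 0.828 and Eln and Fbln5 at 0.814. The lowest was -0.837, between Fbln1 and Efemp2. Among 7109 genes of sufficient level, the profile most like that of Eln was Pdgfrl (0.984), then Sfrp1, a secreted inhibitor of Wnt signalling (0.974), and Mdk, the growth factor midkine (0.960). The profile most like that of Fbn2 was Tspan6 (0.987). Fbln1 was nearest to Gas1 (0.988) and to Timp3, a matrix-bound inhibitor of metalloproteinases (0.983). Fbln5 was nearest to Fuca1 (0.975), Clu (0.974) and Flt1, a VEGF receptor (0.967). Efemp1 was nearest to Rap1a (0.927), and Efemp2 to Tmem14c (0.985).

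Markers of other cells moved over the same times. The counts of markers called here are to be read against the shares of all genes called at each time, given above. The summed level of 9 endothelial markers was 367 to 498 CPM in uninjured libraries and 112 to 167 CPM at day 3, and then 314 to 638 CPM, with Tie1 and Vwf at 0 in day 3 replicate 2. Of these 9, 5 were called lower at day 3, 4 higher and 1 lower at day 7, and 1 lower at week 2 and at week 4. The 9 pericyte and smooth muscle markers summed to 388 to 890 CPM in uninjured libraries and 94.1 to 163 CPM at day 3, and then to 353 to 1165 CPM, with none at 0. Of these, 2 were called lower at day 3, none at day 7 or week 2, and 1 higher at week 4. Eln, Fbln1 and Fbln5 were lowest in the same day 3 replicate 2, and the part of these cells in their values was not tested. The 12 macrophage markers summed to 72.1 to 88.9 CPM in uninjured libraries, with Itgam at 0, to 639 to 1076 CPM at day 3 and to 1641 to 2943 CPM at day 7. They then summed to 486 to 516 CPM at week 2 and 158 to 240 CPM at week 4. Of these markers, 8 passed as higher at day 3, 10 at day 7, 3 at week 2 and 2 at week 4. Efemp2, Fbn1, Fbn2 and Emilin1 were called higher at day 3 and day 7, Fbn2 also at week 2 and Emilin1 also at week 4. The part of the macrophage markers in these values was not tested. The 5 erythroid markers summed to 4132 and 5984 CPM in uninjured libraries and 142 to 3717 CPM later, and were highest in uninjured replicate 2, as was Efemp1. Their part in the Efemp1 values was not tested. The 4 markers of dividing cells summed to 4.77 to 40.4 CPM in uninjured libraries, 685 to 852 CPM at day 3, 166 to 205 CPM at day 7 and 3.85 to 24.3 CPM later, and 2 of them were called higher at day 3 and 1 at day 7. Fbn1, Fbn2, Emilin1 and Efemp2 were called higher at both of those times, and Fbn2 and Emilin1 also at a later time, and the part of these markers was not tested. The 6 epicardial markers summed to 5.52 to 7.46 CPM in uninjured libraries and 3.47 to 148 CPM later, highest in week 2 replicate 1, with Msln at 0 in both uninjured libraries and none of the 6 called. The 8 cardiomyocyte markers summed to 130 to 164 CPM in uninjured libraries and 42.0 to 120 CPM later, with 1 called lower at day 3 and 1 at day 7, and the part of both lists was not tested.

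The other genes of elastic fibre biology were read from 4 lists. Of 70 listed genes of elastic fibre biology, 66 were tested, and Mmp7, Elane, Serpina1a and Itgb6 were not. Against uninjured cells 13 rose and 7 fell at day 3, 16 rose and 2 fell at day 7, 11 rose and 2 fell at week 2, and 13 rose and none fell at week 4. Over all genes, 7.39% were called higher and 4.40% lower at day 3, 4.39% and 2.76% at day 7, 1.44% and 0.454% at week 2, and 1.85% and 0.474% at week 4, and the counts of each list below are to be read against these shares.

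Of 10 crosslinking enzymes and their helpers, 3 to 5 passed as higher at each time and none as lower, all against uninjured cells. At day 3, 5 rose (list median 1.33 on the log2 scale, all genes -0.02), at day 7, 5 rose (1.63), at week 2, 3 rose (0.48), and at week 4, 5 rose (1.11). Lox, the lysyl oxidase that Efemp2 binds, went from 46.7 ± 11.3 CPM (SD, n = 2) to 814 ± 31.6 at day 3, 1324 ± 374 at day 7, 1104 ± 70.7 at week 2 and 627 ± 203 at week 4. Its log2 fold changes were 4.12, 4.83, 4.56 and 3.75, with adjusted p of at most 6.08e-05 by edgeR. Lox was already 4.12 higher at day 3, when Eln was not (-0.27). Loxl3 rose at all 4 times, by 2.98, 2.89, 1.55 and 2.21. From day 7 to week 2, Loxl2 fell by 2.10 (adjusted p = 0.00355) and Fkbp10, a chaperone of collagen and elastin, fell by 2.07 (adjusted p = 0.0305), and Loxl2 was also lower at week 4 than at day 7, by -1.58 (adjusted p = 0.0079). Loxl1, a lysyl oxidase needed for elastin renewal, passed only at week 4, at 2060 ± 331 against 368 ± 173 CPM (2.49 ± 0.51, adjusted p = 0.0364), and its steps from day 7 to week 2 (-1.04 ± 0.49, adjusted p = 0.331) and from week 2 to week 4 (2.06 ± 0.50, adjusted p = 0.104) did not pass.

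Of 31 microfibril and fibulin partners, 3 rose and 3 fell at day 3 (all genes 7.39% and 4.40%, list median -0.57 on the log2 scale), 6 rose and 1 fell at day 7, 3 rose and 2 fell at week 2, and 5 rose and none fell at week 4. Ltbp2, a microfibril protein that binds Fbln5, rose at each time, by 3.29, 4.75, 4.28 and 4.90 on the log2 scale. Fn1, the fibronectin on which microfibrils assemble, rose by 3.25, 4.18, 3.35 and 2.72. Mfap4, which binds elastin, rose by 2.56 at day 7, 1.70 at week 2 and 1.39 at week 4 (the week 2 value is named after it was seen). Emilin2, a relative of Emilin1, and Tgfbi fell by 3.44 and 1.87 at week 2. Ltbp4, a TGF-beta binding protein that works with Fbln5 in elastic fibre assembly, fell by 2.62 at day 3 (SE 0.55, adjusted p = 0.015), the time at which Fbln5 fell.

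Of 12 receptors tested, 1 rose and 1 fell at day 3, 2 rose and 1 fell at day 7, 1 rose at week 2 and none passed at week 4. Itga5, the fibronectin receptor subunit, rose by 1.87 at day 3 and 1.53 at day 7, and Itga8 fell by 3.34 and 3.25. Of 13 proteases and inhibitors tested, 4 rose and 3 fell at day 3, and 3, 4 and 3 rose and none fell at day 7, week 2 and week 4. Timp1, an inhibitor of metalloproteinases, rose by 5.13, 3.88, 2.93 and 3.03. Ctss, the elastin-cleaving cathepsin S of macrophages, rose by 4.71, 6.16 and 3.82 at day 3, day 7 and week 2. Timp3 fell by 2.17 at day 3. Mmp12, the macrophage elastase, was listed at 0 in both uninjured libraries and averaged 24.2 CPM at day 3.

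With the flank of 50 kb, the share of regions gained near the 10 genes was below that of all regions at day 3 and day 7. It was above that of all regions at week 2 and week 4. The week 2 direction depended on the flank, since with 10 kb the share was below that of all regions (4.49% against 5.08%). Lists ran from 63901 to 107798 peaks, shortest in uninjured replicate 1 and longest in day 3 replicate 2. A region was called gained when both libraries of a time had a peak and neither uninjured library did, and lost in the reverse case. No test was made, since 2 libraries against 2 cannot go below an exact two-sided p of 0.333. Of the 267 regions, 28 were gained at day 3 (10.5%, against 17.2% of all regions), 19 at day 7 (7.12% against 9.29%), 18 at week 2 (6.74% against 5.08%) and 13 at week 4 (4.87% against 2.76%). Lost regions numbered 2, 5, 2 and 5 (0.749%, 1.87%, 0.749% and 1.87%, against 1.09%, 2.37%, 2.66% and 3.68%). A peak was present in all 10 libraries in 99 regions (37.1% against 27.2%). With the 60000 strongest peaks of each list, 8 of 192 regions were gained at day 3 (4.17%, against 8.90% of all regions) and 13 lost (6.77% against 6.19%). The windows of Emilin1 and Efemp2 hold 11 other genes each, and those of Fbn2 and Efemp1 none.

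**Figure D3:**
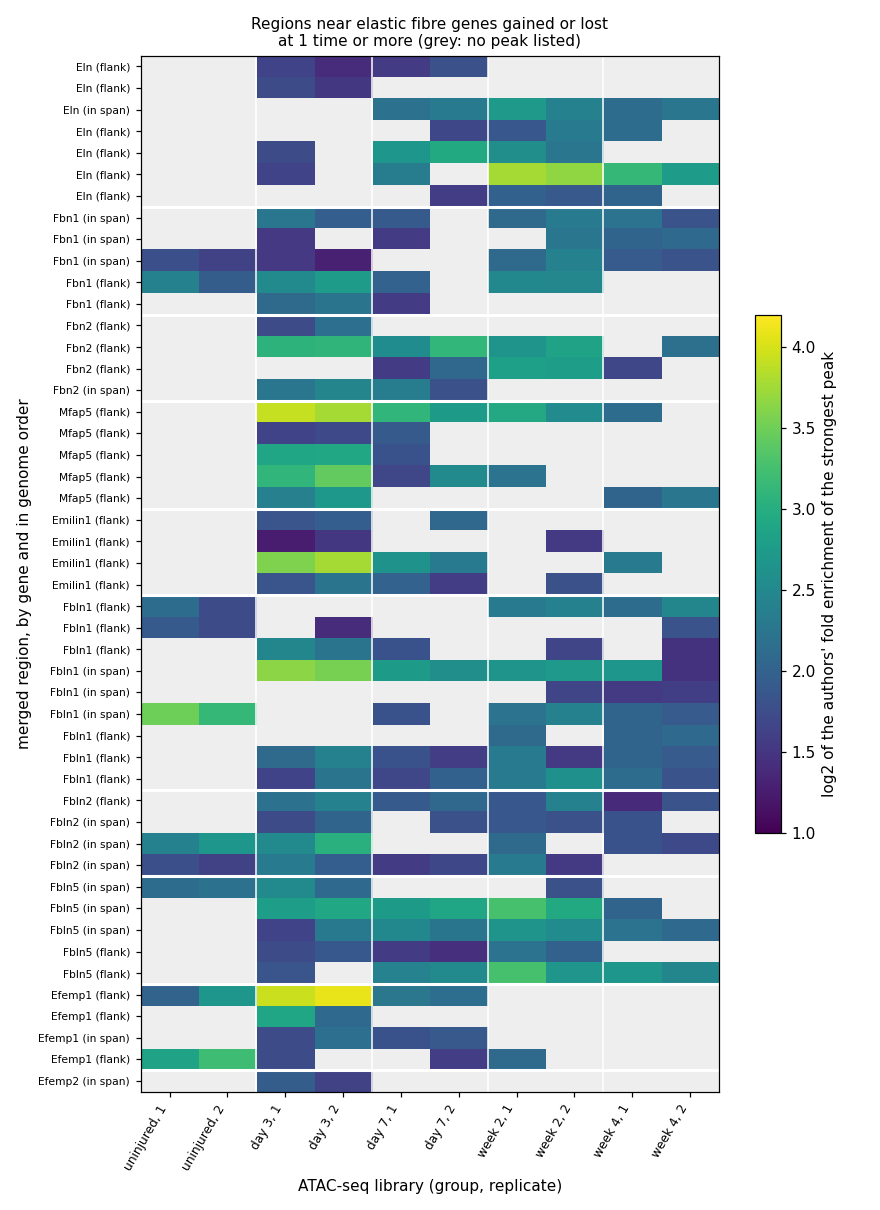
Every merged region near the 10 genes that was gained or lost at 1 time or more (rows, by gene) in the 10 ATAC-seq libraries (columns), coloured by the log2 of the authors' fold enrichment of its strongest peak, with grey where no peak is listed. The Eln region in the gene span is empty in the 4 uninjured and day 3 libraries and filled in the 6 later ones.

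The regions and time patterns named next were chosen after their values were seen, and the fold enrichments are the authors' values for single peaks. A 1076-base region within the Eln span (chr5:134719703-134720778) had no peak in the 4 uninjured and day 3 libraries. It had fold enrichments of 4.56 and 4.97 at day 7, 6.64 and 5.31 at week 2 and 4.37 and 4.78 at week 4, the times at which Eln RNA was above uninjured in every library. This pattern was found in 0.127% of all regions and in 1 of the 267. A flanking region of Eln (chr5:134778545-134780462) reached 13.6 and 12.8 at week 2 and had no peak in the uninjured libraries.

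Fbln1 had 2 regions with a peak in both uninjured libraries, none at day 3 and a peak in all 4 libraries of week 2 and week 4 (chr15:85166195-85167847 and chr15:85250924-85253170), a pattern of 0.0963% of all regions. The second lies in the gene span and stood at 11.2 and 8.75 in uninjured libraries, with no peak at day 3, and at 3.78 to 5.31 in the 4 later libraries of week 2 and week 4. The pattern does not ask about day 7. At that time the first region had no peak, and the second had one in replicate 1 only (3.49). Fbln1 RNA was called higher at day 7 than at day 3. Another region in the Fbln1 span (chr15:85225000-85226491) went the other way, with no peak in uninjured libraries and 12.5 and 11.6 at day 3. It was 1 of 5 regions near the 10 genes, 3 of them at Fbln1, with no uninjured peak and a peak in all 8 libraries after MI, against 1.19% of all regions.

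A flanking region of Efemp1 (chr11:28833581-28834957) had peaks of 4.06 and 6.44 in uninjured, 15.4 and 17.1 in day 3 and 4.83 and 4.47 in day 7 libraries, and none at week 2 or week 4, a pattern of 0.177% of all regions. Its day 3 peaks were the highest of the Efemp1 regions that were gained or lost, at a time when Efemp1 RNA did not pass. A flanking region of Mfap5 (chr6:122531001-122533262) had no uninjured peak and stood at 15.1 and 13.7 at day 3, 8.59 and 6.70 at day 7 and 7.63 and 5.84 at week 2.

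Gained regions near the other genes had different lengths of stay. A region in the flank of Fbn2 had no uninjured peak and stood at 8.40 and 8.57 at day 3, 5.90 and 8.69 at day 7 and 6.31 and 7.17 at week 2, and at week 4 only replicate 2 had a peak (4.53). Fbn2 RNA was called higher at those same 3 times. Within the Fbln5 span, a region (chr12:101797537-101799630) with no uninjured peak stood at 6.96 and 7.55 at day 3 and 9.63 and 7.70 at week 2, and it was present at day 3 although Fbln5 RNA was lower then. The highest gained region in the Emilin1 window (chr5:30901116-30903928) had peaks in both day 3 libraries, of 13.7 in replicate 2, and overlaps another gene, Agbl5. Within the Fbln2 span, a region (chr6:91246602-91249390) with peaks in both uninjured libraries reached 5.76 and 8.16 at day 3 and had none at day 7, when Fbln2 RNA was called higher. The 1 gained region of Efemp2 lies in its span (chr19:5477111-5477840) and had peaks of 3.84 and 3.06 in the day 3 libraries and none elsewhere.

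The strongest peak of the merged region that holds the start site, here called the start peak, was compared by its rank. In a long region this peak can lie away from the start site. The rank is the percentile of its fold enrichment among the 38936 regions with a peak in all 10 libraries. Regions that lost their peak in any library are left out. A region of low rank cannot drop far, nor can one of high rank gain much. The shares of regions given below therefore describe the ranked set and do not show how rare a change is. The measure by rank was chosen after the data were seen. At Efemp1 the percentile was 40.0 and 43.6 in uninjured, 46.2 and 34.1 in day 3, 21.8 and 31.3 in day 7, 2.8 and 0.2 in week 2 and 2.7 and 0.3 in week 4 libraries. The mean dropped by 40.3 points at both week 2 and week 4, and 0.796% and 0.696% of these regions dropped as far. Ranked only among the 11044 such regions that hold a RefSeq start, the drop was 12.7 and 12.5 points, from 11.9 and 14.0 in uninjured libraries to between 0.0 and 0.7, so its size depends on the set ranked while all 4 later libraries lay lowest in both. The fold enrichment itself went from 11.2 and 12.9 to 4.31 and 3.19 at week 2 and 3.78 and 2.77 at week 4. The start peak of Fbln1 stood at 68.3 and 68.6 in uninjured, 52.2 and 56.5 in day 3 and 66.9 and 68.2 in week 4 libraries, and 13.7% of regions dropped as far at day 3. That of Fbln5 stayed between 81.4 and 88.0 in all libraries while its RNA fell at day 3. That of Fbln2 went from a mean of 86.8 to 96.3 at day 3 (20.2% of regions gained as much) and 92.5 at day 7 (28.0%), and was 84.8 at week 2 and 91.6 at week 4. The Fbln2 region is 15959 bases long and also overlaps 4930402H05Rik, so its strongest peak may not be that of the Fbln2 start.

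At the other genes the peak at the start site or span end was compared in the same way. That of Emilin1 had a mean percentile of 97.4 in uninjured libraries and 96.0 to 97.5 later. The Emilin1 region is 11973 bases long and also overlaps Agbl5 and Ost4, so its strongest peak may belong to another gene. The start peak of Fbn1 went from 89.8 to 82.8 at day 7, when 27.9% of the ranked regions dropped as far. That of Efemp2 went from 82.5 to 71.9 at day 3, when its RNA was called higher, and 19% of regions dropped as far. For Eln, whose strand is not in the files, the peak at the high-coordinate end of the span went from 89.8 to 75.1 at day 3 (12.7% dropped as far) and 84.9 at week 4 (28.1%). The one at the low-coordinate end went from 14.3 to 8.6 at day 3 (30.3% dropped as far) and 23.5 at day 7 (21.2% gained as much). The end peak of Mfap5 went from 25.6 to 42.9 at day 7, where 12.1% gained as much, and its RNA did not pass then. That of Fbn2 went from 59.8 to 70.9 at day 3, where 17.9% gained as much, and its RNA was called higher then.

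**Figure D4:**
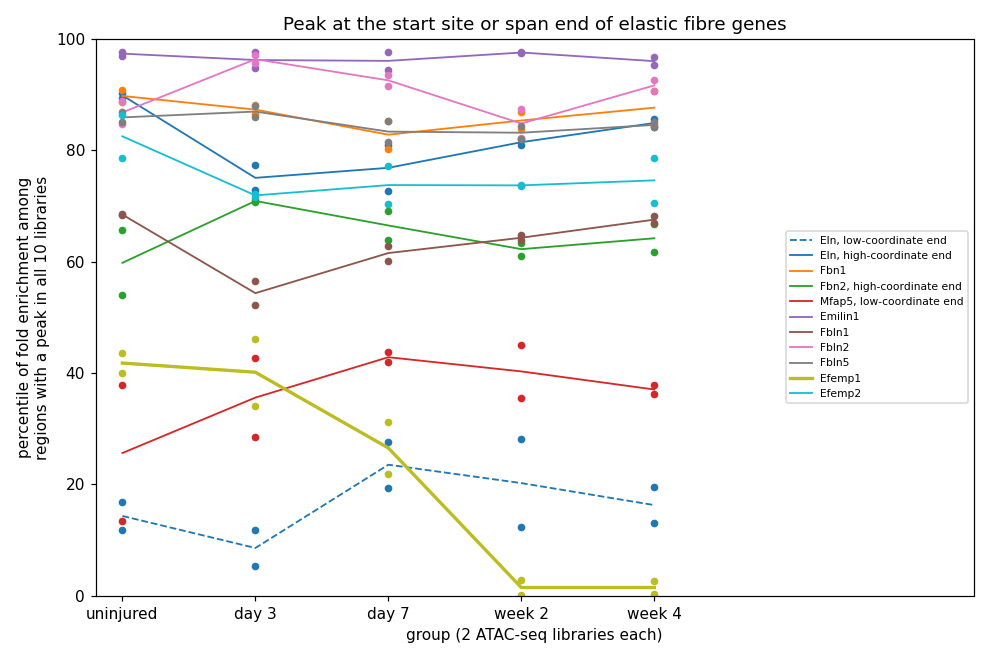
The percentile of the strongest peak in the merged region at the start site (vertical axis, 0 to 100), by group. Where no RefSeq start was matched, the region lies at an end of the gene span. Dots are the 2 ATAC-seq libraries and lines join the means. The thick Efemp1 line goes from 41.8 in uninjured libraries to 1.5 at week 2 and week 4.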

How the data were processed

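RNA-seq and ATAC-seq were analysed from the deposited files. The RNA table deposited by the authors holds expected counts, that is estimated counts per gene, and 11.7% of its values are not whole. Each ATAC-seq file deposited by the authors is a peak list of 1 library, with a score, a fold enrichment (a ratio), and the −log10 of p and of q for each peak. Within a list each p went with 1 fold, so ranks by either are the same. Per the submitters' processing notes the tools included STAR 2.5.3a, Bowtie2 2.3, MACS2, Trim Galore 0.6 and FastQC, and the builds GRCm38 and mm10, without their roles. For the counting program, its strand setting and the peak thresholds the entry is "not given in the sources used here", so reads of overlapping genes on opposite strands may not be told apart.

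Counts were rounded and fitted with edgeR 4.0.16 in R 4.3.3 (TMM, filterByExpr by group, robust quasi-likelihood, group only, all 10 libraries, 5 residual degrees of freedom), with Benjamini-Hochberg adjustment over 14968 genes at 0.05 in each contrast. The script was tested on simulated data in which 100 genes were changed 2-fold and 100 were changed 4-fold at day 3. Of these, 1% and 25% passed, and 2.3% of 43 and 75% of 32 that had a higher level in uninjured cells. In the data 1764 genes passed at day 3, which makes the adjusted threshold less strict than in the simulation. The simulated rates need not carry over to the data. In either case a value that did not pass is not shown to be unchanged. DESeq2 1.42.0, upper-quartile factors, no filter, a replicate block and leaving out each library were alternatives. CPM used TMM library sizes. All 10 members are named, and up to 4 genes of each list and contrast that passed, largest change first. Likeness used genes of mean log2 CPM of 4 or more with a prior count of 2. Peaks of the 10 lists were merged at an overlap of 1 bp. Promoters came from RefSeq on GRCm38.p6, where 7 of 10 members matched (not Eln, Fbn2 or Mfap5). Levels were not compared between genes, since lengths were not used. The members, lists and tests were chosen with earlier results of these data known. Intervals and floors were not used, and PCR reads without molecular identifiers are not independent molecules. No column of the table stayed unmapped.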

Additional observations from a re-analysis of the deposited data

Results flagged for a closer look

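Differences between times after MI, tested in the joint edgeR fit with Benjamini-Hochberg adjustment and given as log2 fold changes, passed for 6 of the 10 genes. Between day 3 and day 7, Eln rose by 4.16 (adjusted p = 0.0178), with both day 7 libraries above both day 3 libraries. Fbln1 rose by 1.51 (adjusted p = 0.0467) and Fbln5 by 2.27 (adjusted p = 0.00635) over the same interval, again with no overlap. These are 3 of 10 genes, beside 1.38% of all genes tested. From day 7 to week 2, Fbln2 changed by -1.77 (adjusted p = 0.0472) and Efemp2 by -1.06 (adjusted p = 0.0335), beside 0.648% of all genes. From week 2 to week 4, Fbn2 changed by -2.69 (adjusted p = 0.0287), beside 0.608%. Between day 7 and week 4, Fbn2 changed by -2.96 (adjusted p = 0.00707), Fbln1 by 2.38 (adjusted p = 0.00679) and Efemp2 by -1.08 (adjusted p = 0.0147), beside 2.42%. The Fbln5 call passed with each of the 10 libraries left out, and each of the other 8 was lost without at least 1 library.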

How the results depend on the processing

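None of the 28 calls of the 10 genes changed direction under any setting. Of the 52 values that did not pass, 11 changed sign under 1 setting or more, all of them 0.40 or less in size, such as Fbln2 at week 2 (from -0.40 to 0.02 without week 2 replicate 2) and Fbn1 at week 4 (from 0.22 to -0.24 without uninjured replicate 2). All 28 calls passed with DESeq2, upper-quartile factors or no filter, 26 with the replicate block, and 8 with each of the 10 libraries left out: Fbn2 at day 3, day 7 and week 2, Fbln1 and Fbln5 at day 3, Fbln5 from day 3 to day 7, and Efemp2 at day 3 and day 7. Where counts moved, the cause was not tested. In the order day 3, day 7, week 2 and week 4 against uninjured, day 7 against day 3, week 2 against day 7, week 4 against week 2, week 4 against day 7 and any difference, DESeq2 called 2856, 2000, 803, 860, 974, 1057, 920, 1312 and 4367 of all genes. With no filter the counts were 1846, 796, 971, 814, 1029, 952, 1306 and 4148 from day 7 on. Of the 10 genes, DESeq2 called 6, 6, 4, 3 and 5 at week 2, week 4, week 2 against day 7, week 4 against week 2 and week 4 against day 7, and no filter gave 6, 6, 5, 5 and 5. Of the 66 pathway genes, DESeq2 called 32, 30, 20 and 20 at the 4 times, and no filter gave 34, 21 and 31 from day 7 on. DESeq2 moved the share of calls that were higher from 76.0 to 60.8% at week 2, from 79.6 to 68.5% at week 4, from 29.9 to 46.4% for week 2 against day 7 and from 74.7 to 60.9% for week 4 against week 2.

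The replicate block, for numbers that the labels share but do not pair (2 pairs a comparison, correlations of deviations from -0.018 to 0.029), left 1 of 10 genes called at week 2 and 2 between week 2 and week 4. With the block Eln (3.12, adjusted p = 0.0507) and Efemp1 (-2.79, adjusted p = 0.0915) were lost at week 2, and Fbln1 passed at week 4 (1.18, adjusted p = 0.0445) and from day 7 to week 2 (1.47, adjusted p = 0.0397), as did Fbln2 from week 2 to week 4 (1.42, adjusted p = 0.0494). Leaving out 1 library, where the lone sample of a group is assumed to vary like the others, gave 677 to 2078, 312 to 1315, 134 to 450, 101 to 491, 31 to 418, 4 to 424, 3 to 702, 32 to 578 and 1458 to 2945 called genes in the order above. For the 10 genes the ranges were 4 to 6, 2 to 8, 1 to 5, 0 to 4, 1 to 3, 0 to 4, 0 to 3, 1 to 4 and 8 to 10, and for the pathway genes 11 to 22, 13 to 24, 9 to 15 and 5 to 18 at the 4 times. The lowest count of kept calls was 14 of 28, without day 7 replicate 2, followed by 16 without uninjured replicate 2.

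Regions gained, each with its share of the regions near the 10 genes and, after the stroke, of all regions, were 8 (4.17 / 8.90%) and 11 (5.73 / 6.82%) at day 3 and day 7 with the 60000 top peaks. They were 14 (8.97 / 17.2%), 9 (5.77 / 9.29%), 7 (4.49 / 5.08%) and 7 (4.49 / 2.76%) at the 4 times with a flank of 10 kb, 12 (6.82 / 8.79%) and 7 (3.98 / 2.2%) at day 7 and week 4 with peaks of −log10 q of 5 or more, and 11 (4.12 / 7.44%) at day 7 where peaks had to cover most of a region. Regions lost were 13 (6.77 / 6.19%) and 12 (6.25 / 6.78%) at day 3 and day 7 with the top peaks, 1 (0.641 / 1.09%), 3 (1.92 / 2.37%), 0 (0 / 2.66%) and 2 (1.28 / 3.68%) with the shorter flank, and 5 (1.87 / 1.69%) and 6 (2.25 / 4.67%) at day 3 and week 2 with the coverage rule. Leaving out 1 ATAC-seq library gave 34 to 43, 21 to 40, 21 to 36 and 17 to 35 gained and 4 to 12, 6 to 17, 3 to 9 and 6 to 13 lost. These counts could only rise, because the rule then asks for 1 library of that group in place of 2. They are given without shares of all regions and are not a result about the 10 genes. The Efemp1 start region, ranked among regions with a RefSeq start, dropped by 6.9, 12.7 and 12.5 points at day 7, week 2 and week 4 in place of 15.3, 40.3 and 40.3. Ranks by −log10 p, tried first, gave the same values by construction and check nothing. Both rankings were chosen after seeing the data.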
